A study of Mus musculus with 16 samples.

Results

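The 9 genes described here encode proteins that set the lifetime of mRNAs carrying AU-rich elements, and they were taken by name from the 9614 genes of the expression table: Zfp36, Zfp36l1, Zfp36l2, Zc3h12a, Zc3h12c, Elavl1, Khsrp, Hnrnpd and Cnot1. All 9 were in the table and none was lost to a filter.

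AU-rich elements are stretches of adenosine and uridine in the 3′ untranslated region (3′UTR) of many cytokine and immediate early mRNAs, and they shorten the life of the transcript. ZFP36 (tristetraprolin) and its relatives ZFP36L1 and ZFP36L2 bind them and bring in the CCR4-NOT deadenylase, whose scaffold is CNOT1, while ELAVL1 (HuR) binds similar sequences and is known mostly for stabilising the mRNA. ZC3H12A (Regnase-1) and its relative ZC3H12C are endoribonucleases that cut stem-loops in inflammatory mRNAs, and in macrophages several of these factors are themselves produced after a toll-like receptor is engaged, which helps to end cytokine production.

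Macrophages were grown from the bone marrow (BMDM) of 6 male C57BL/6 mice aged 8 weeks, and 16 RNA-seq libraries were made from them. WT mice were LysM-Cre:NELF-B wt/wt and NELF-B KO mice were LysM-Cre:NELF-B fl/fl, so that both genotypes carried the Cre recombinase, which the Lyz2 promoter drives in myeloid cells, and differed in the floxed alleles of Nelfb, a subunit gene of the negative elongation factor NELF. The cells of 3 mice per genotype, called A, B and C here, were exposed for 1 hr to 10 ng/ml of the toll-like receptor 4 ligand LPS or to LPS with 100 nM of the synthetic glucocorticoid dexamethasone (Dex), and the cells of mice A and B were also left untreated. The design asks which transcripts respond to LPS, which are altered when Dex is added, and whether either response differs without NELF-B.

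Values are log2 CPM as the authors deposited them, that is, the reads of a gene scaled to the size of its library. The reads recovered from these values and summed over the genes of the table were 25000000 to 49700000 per library, with a median of 34200000. They are not the full sequencing depth. Nelfb was at 5.59 to 6.21 log2 CPM in the WT libraries and at 3.27 to 4.38 in the KO libraries, which matches the labels, with some transcript left. Of 9 macrophage markers 8 were in the table, with Adgre1 absent, and their summed level was 6678 to 9513 CPM. The lists for T or NK cells, erythroid cells and mast cells or basophils had no gene in the table, and those for neutrophils, B cells and dendritic cells had 1 each. S100a8 (neutrophils) was at 5.56 to 27.1 CPM in untreated WT and 11.8 to 18.3 in untreated KO. It was at 5.46 to 20.5 and 13.9 to 36.3 with LPS, and 7.84 to 24.2 and 20.6 to 41.5 with LPS and Dex. Cd79b (B cells) was at 13.4 to 39.7 CPM and Ccr7 (dendritic cells) at 0.46 to 10.1 over all libraries. Their part in the differences below was not tested. Of 6 stromal markers 4 were in the table (Col1a1, Col1a2, Col3a1 and Dcn), and their summed level was 49.2 to 83.6 CPM in untreated WT and 81.0 to 89.7 in untreated KO, 64.4 to 111 and 99.7 to 125 with LPS, and 94.4 to 122 and 105 to 145 with LPS and Dex. It thus tended to be higher with treatment and in KO, and its part in the differences below was not tested. The library of untreated WT mouse A stood apart, with correlations of 0.83 to 0.909 to the others across genes against 0.924 to 0.993 among the other 15, and beside the WT LPS differences of the 9 genes the value without it is given. In bulk RNA a lower level cannot be told apart from fewer cells of a type.

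The mRNAs of the 3 ZFP36 family members and of Elavl1 themselves hold the long form of the AU-rich element, TTATTTATT in DNA letters, and the windows around it are shown because this is the element that ZFP36 family proteins are known to bind. Capitals mark the 9-base element in the main transcript of GENCODE vM21, build GRCm38, all in the 3′UTR.
Zfp36 3′UTR, chr7:28376951-28376979, minus strand: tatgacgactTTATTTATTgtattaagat
Zfp36l1 3′UTR, chr12:80108167-80108195, minus strand: aactgttggaTTATTTATTttagaaattc
Zfp36l2 3′UTR, chr17:84184914-84184942, minus strand: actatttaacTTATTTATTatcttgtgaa
Elavl1 3′UTR, chr8:4285788-4285816, minus strand: gtcatgaaaaTTATTTATTtatttattta

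The 9-base element was present once in each ZFP36 family mRNA and 8 times, in a cluster of partly overlapping copies, in the 3′UTR of Elavl1, and it was not found in the other 5. At least 1 copy was present in 7.6% of the 9085 genes of the table with an annotated 3′UTR, and 2 or more in 1.6%. The core pentamer ATTTA, of which the longer element contains a copy, was counted 3 times in Zfp36 and in Zc3h12a, 5 times in Zfp36l2, 9 times in Zfp36l1, 10 times in Hnrnpd, 14 times in Zc3h12c and 17 times in Elavl1, and once each in Khsrp and Cnot1, while the median gene had 1 and 36.5% of genes had 3 or more. Length differs widely between these 3′UTRs, from 774 bases in Zfp36 to 5429 in Hnrnpd, so the counts are not densities. Per kilobase, Zfp36l1 had 4.9 and Khsrp 0.61.

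RefSeq (GRCm38.p6) held a promoter window, 250 bases before to 50 after the start, for 7 of the 9 genes, with a pair of windows for Zc3h12c and none matched for Zfp36l2 and Cnot1. The windows of Zfp36 and Zfp36l1 are printed because these family members differed in opposite directions within every mouse when Dex was added. Capitals mark a match to the AP-1 motif.
Zfp36 promoter, chr7:28379179-28379478, minus strand: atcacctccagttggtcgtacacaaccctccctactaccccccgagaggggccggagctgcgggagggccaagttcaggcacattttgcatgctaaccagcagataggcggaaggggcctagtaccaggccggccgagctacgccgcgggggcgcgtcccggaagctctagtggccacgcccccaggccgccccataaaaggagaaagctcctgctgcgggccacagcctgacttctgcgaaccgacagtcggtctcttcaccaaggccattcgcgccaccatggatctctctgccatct
Zfp36l1 promoter, chr12:80112964-80113263, minus strand: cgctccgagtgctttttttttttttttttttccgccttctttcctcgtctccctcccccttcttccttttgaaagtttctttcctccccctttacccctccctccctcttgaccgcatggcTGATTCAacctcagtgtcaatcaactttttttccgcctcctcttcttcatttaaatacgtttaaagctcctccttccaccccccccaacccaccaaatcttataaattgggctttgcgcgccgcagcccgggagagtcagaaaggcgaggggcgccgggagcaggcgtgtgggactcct

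Letters searched on both strands were GGNNTTTCC for NF-kB, TGANTCA for AP-1, TGACGTCA for the cAMP response element, CATATTAG for the serum response element core and AGAACA for the glucocorticoid response element hexamer, and none of these overlap. Only 3 matches were found in the 8 windows: TGATTCA for AP-1 at −129 in Zfp36l1, and the reverse complement of the hexamer, TGTTCT, at −218 in Hnrnpd and at 3 bases after the start in the window of Zc3h12c at chr9:52149314-52149613. Over 32851 mouse promoter windows the share with a match was 5.82% for NF-kB, 7.81% for AP-1, 1.79% for the cAMP response element, 0.37% for the serum response element core and 18.97% for the hexamer. A match in this window is a description of the letters and no evidence of binding.

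**Figure D1:**
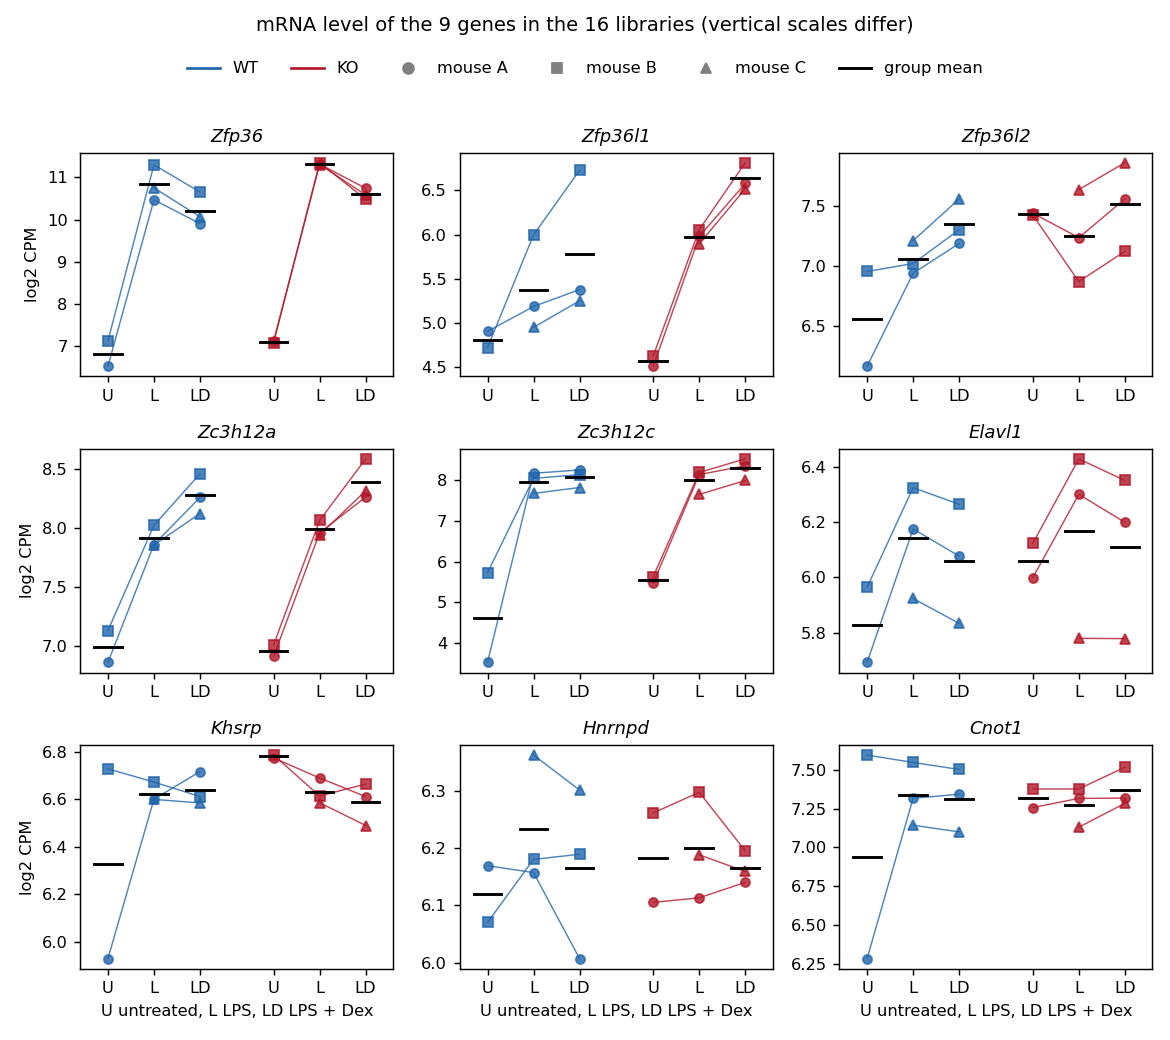
Level of each of the 9 genes (log2 CPM, vertical axis) in the 16 libraries, untreated (U), with LPS (L) and with LPS and Dex (LD), WT in blue and KO in red. Lines join the libraries of 1 mouse and black bars are group means. Zfp36 and Zc3h12c are far higher with LPS, Zfp36 is lower with Dex in every mouse, and the low untreated WT mouse A is seen in Zc3h12c, Khsrp and Cnot1.

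The 9 genes were expressed at very different levels, compared here as CPM per kilobase of the main transcript. In untreated WT cells Zc3h12a (46.4 CPM per kb) and Zfp36 (40.7) were highest, and they did not differ beyond their spread, with 5.54 ± 0.19 and 5.35 ± 0.43 log2 CPM per kb (SD, n = 2). Zfp36l2 followed at 26.8, Khsrp at 20.2 and Cnot1 at 14.7 CPM per kb, and Zc3h12c was lowest at 3.64, where untreated KO cells had 6.92. After LPS the order changed at the top and at the bottom. Zfp36 reached 657 CPM per kb in WT and 917 in KO, a level of 9.36 ± 0.42 and 9.84 ± 0.02 log2 CPM per kb (SD, n = 3), far above Zc3h12a in the next place with 6.45 ± 0.10 and 6.53 ± 0.07. Zc3h12c moved to the fourth place at 37.0 and 37.8 CPM per kb, within the spread of Zfp36l2 (37.8 in WT and 43.1 in KO). Hnrnpd was lowest after LPS at 11.0 and 10.8, close to Elavl1 at 12.3 and 12.5. The lower places depend on the length used. With all annotated exons merged, Elavl1 was lowest after LPS at 6.81 and 6.94 CPM per kb, Cnot1 was next at 9.41 and 9.02 and Hnrnpd stood above them at 10.2 and 9.99, while Zfp36 and Zc3h12a kept the first 2 places.

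LPS raised the RNA of Zfp36, Zc3h12a and Zc3h12c in both genotypes and that of Zfp36l1 in KO, and the other 5 genes were not called. A gene was called changed by LPS at a false discovery rate (FDR) under 0.1 and over 1.5-fold. In WT cells 3 of the 9 passed, Zfp36, Zc3h12a and Zc3h12c, all higher, where the rate over all genes was 6.01% higher and 3.14% lower. In KO cells 4 of the 9 passed, the same 3 and Zfp36l1, against 3.08% higher and 1.24% lower over all genes. The 3 WT calls and the 4 KO calls were the same without untreated WT mouse A.

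Zfp36 changed most. Untreated, it was at 6.53 log2 CPM in WT mouse A and 7.13 in WT mouse B, and at 7.12 and 7.08 in the KO. With LPS the WT mice, in the order A, B and C, were at 10.47, 11.30 and 10.75 and the KO mice at 11.31, 11.35 and 11.30. All LPS libraries were above all untreated ones, and the 3 KO values lay closer together than the WT values. The difference was 4.01 ± 0.25 (log2, SE), a 16.1-fold rise, in WT (adjusted p = 2.41e-07, limma) and 4.22 ± 0.25, or 18.6-fold, in KO (adjusted p = 1.24e-07). Without untreated WT mouse A the WT difference was 3.71 (adjusted p = 7.86e-06).

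Its relatives gave smaller differences. Zfp36l1, which shares the zinc fingers and the targets of Zfp36, was at 4.90 and 4.72 log2 CPM in untreated WT mice A and B and at 5.19, 6.00 and 4.95 with LPS, and in the KO it was at 4.51 and 4.63 untreated and at 5.98, 6.06 and 5.90 with LPS. The KO groups were tight and far apart, whereas in WT only mouse B reached the KO level. In limma the difference was 1.41 ± 0.37 in KO (adjusted p = 0.0544) and 0.56 ± 0.37 in WT (adjusted p = 0.31), or 0.66 without untreated WT mouse A (adjusted p = 0.668). The KO call was lost when any of the 5 untreated or LPS-treated KO libraries was left out (adjusted p = 0.11 to 0.356, differences of 1.35 to 1.47). With the mouse as a block, which compares libraries within a mouse, the WT rise of 0.81 was also called (adjusted p = 0.0695), and it was 1.44 with the block and without untreated WT mouse A. Zfp36l1 was higher with LPS in each of the 4 mice with an untreated library, by 0.28 in WT mouse A and by 1.28, 1.47 and 1.43 in the other three. Of its exon bases 55.92% are shared with Gm26669, a non-coding gene on the opposite strand, and since the sources used here do not state strand in counting, reads of the 2 genes cannot be told apart.

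Zfp36l2, the third macrophage member of the family, was not called. It was at 6.17 and 6.96 log2 CPM in untreated WT and at 6.94, 7.02 and 7.21 with LPS, and at 7.44 and 7.43 untreated and 7.24, 6.87 and 7.64 with LPS in the KO. The treated and untreated libraries overlapped in both genotypes. The limma differences were 0.50 ± 0.26 in WT (adjusted p = 0.228) and −0.18 ± 0.26 in KO (adjusted p = 1.0), and the WT value was 0.10 without untreated WT mouse A (adjusted p = 0.903). It passed the threshold only when untreated WT mouse B was left out (0.89, adjusted p = 0.0196), which leaves mouse A as the only untreated WT library.

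Both Regnase genes rose. Zc3h12a was at 6.86 and 7.13 log2 CPM in untreated WT and at 7.86, 8.02 and 7.86 with LPS, and at 6.92 and 7.01 and then 7.96, 8.06 and 7.94 in the KO. The values were nearly the same in the 2 genotypes, and the change within a mouse was 0.89 to 1.05. The limma difference was 0.92 ± 0.14 or 1.89-fold in WT (adjusted p = 0.000753) and 1.02 ± 0.14 or 2.03-fold in KO (adjusted p = 0.000285). Without untreated WT mouse A the WT difference was 0.78 (adjusted p = 0.00932).

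Zc3h12c started lower and rose further. It was at 3.52 and 5.73 log2 CPM in untreated WT mice A and B and at 8.17, 8.05 and 7.68 with LPS, and at 5.47 and 5.63 and then 8.14, 8.20 and 7.65 in the KO. Untreated WT mouse A was the only library under 5. The difference in limma was 3.35 ± 0.45 or 10.2-fold in WT (adjusted p = 0.000316) and 2.45 ± 0.45 or 5.46-fold in KO (adjusted p = 0.00455), but without that library the WT difference was 2.24 ± 0.26 (adjusted p = 0.000242), close to the KO value.

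The RNA-binding proteins Elavl1, Khsrp and Hnrnpd and the CCR4-NOT scaffold Cnot1 were not called. Elavl1 was at 5.69 and 5.96 log2 CPM in untreated WT and at 6.18, 6.32 and 5.92 with LPS, and at 6.00 and 6.12 and then 6.30, 6.43 and 5.78 in the KO. It was higher with LPS within each of the 4 mice, by 0.48, 0.36, 0.30 and 0.30, yet mice C were so low that the groups overlapped. The limma differences of 0.31 ± 0.22 in WT and 0.11 ± 0.22 in KO were not called (adjusted p = 0.335 and 1.0), and without untreated WT mouse A the WT value was 0.18 (adjusted p = 0.822). With the mouse as a block they were 0.42 (adjusted p = 0.00463) and 0.29 (adjusted p = 0.037), past the FDR but under 1.5-fold.

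Khsrp, which promotes decay of AU-rich mRNAs, ranged from 5.93 to 6.79 log2 CPM over all 16 libraries and from 6.49 to 6.79 without untreated WT mouse A. Hnrnpd (AUF1) ranged from 6.01 to 6.36. Cnot1 was at 6.28 in untreated WT mouse A and from 7.10 to 7.60 in the other 15 libraries. In limma their LPS differences were 0.30, 0.11 and 0.40 in WT and −0.15, 0.02 and −0.04 in KO, with adjusted p from 0.257 to 1.0, and without that library the WT values of Khsrp and Cnot1 turned to −0.10 and −0.26 and that of Hnrnpd was 0.16. The 95% interval of the WT difference ran from −0.07 to 0.66 for Khsrp, from −0.13 to 0.36 for Hnrnpd and from −0.20 to 1.00 for Cnot1.

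**Figure D2:**
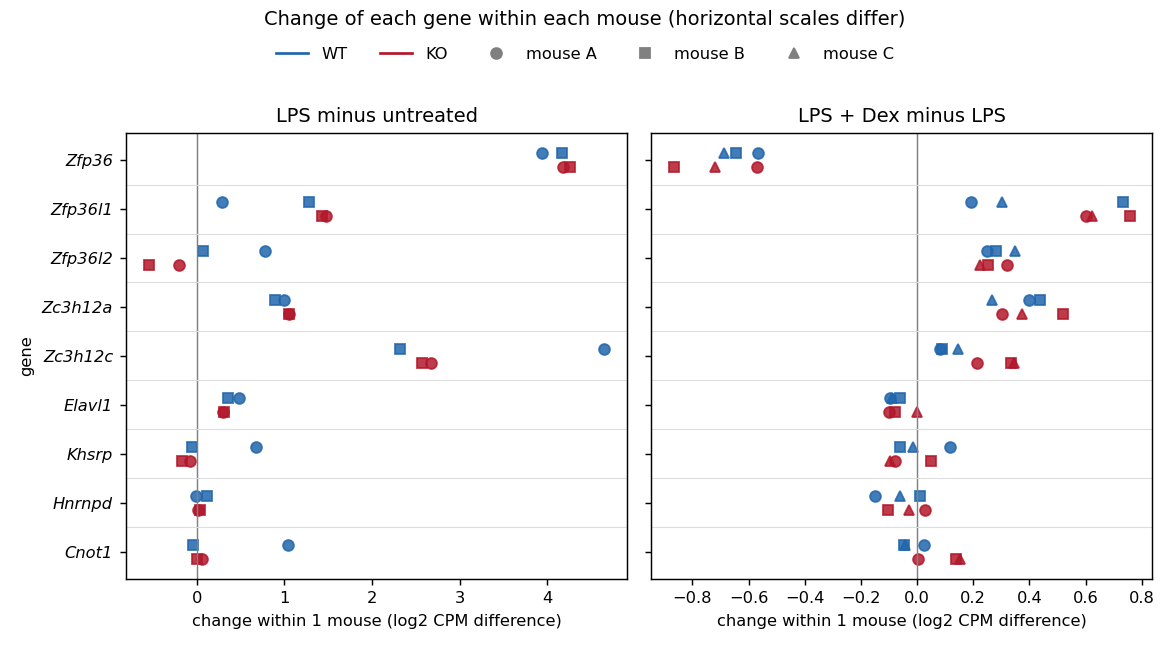
Change of each gene within 1 mouse (log2 CPM difference, horizontal axis), LPS minus untreated in 4 mice (left) and LPS with Dex minus LPS in 6 mice (right), WT in blue and KO in red. With LPS, Zfp36 lies between 3.94 and 4.26 in every mouse, and with Dex it lies between −0.87 and −0.57, opposite to Zfp36l1, Zfp36l2, Zc3h12a and Zc3h12c.

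With Dex added for the same 1 hr, Zfp36 was lower and 4 other decay factors were higher within every mouse. None of these differences was called in the fit without the mouse, which does not use the pairing of libraries. A gene was called changed by Dex at an FDR under 0.1 and over 1.3-fold. None of the 9 passed in limma in either genotype, where the rate over all genes was 0.666% higher and 0.322% lower in WT and 0.832% and 0.447% in KO. At an unadjusted p under 0.05 there were 2 in each genotype, Zfp36 and Zc3h12a, and voom, the count-based weighting in limma applied to the recovered reads, also called 0. The share of all genes at that unadjusted threshold was not counted, here or below. With the mouse as a block 1 member was called in WT and 2 in KO, where the rates over all genes were 1.37% higher and 1.22% lower in WT and 1.57% and 1.45% in KO. The same block gave 4 LPS calls in each genotype, Zfp36l1 joining in WT, against 11.8% higher and 9.11% lower in WT and 4.04% and 2.12% in KO.

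Zfp36 was at 9.90, 10.65 and 10.06 log2 CPM with LPS and Dex in WT mice A, B and C, against 10.47, 11.30 and 10.75 with LPS alone, and at 10.74, 10.48 and 10.58 in the KO, against 11.31, 11.35 and 11.30. The KO groups did not overlap and the WT groups did. Within a mouse the difference was −0.57, −0.65 and −0.69 in WT and −0.57, −0.87 and −0.72 in KO. The difference was −0.63 ± 0.23 in WT (adjusted p = 0.686) and −0.72 ± 0.23 in KO (adjusted p = 0.368) in limma, and with the mouse as a block the standard error shrank to 0.07 and both were called (adjusted p = 0.00336 and 0.00146). These are levels of 0.645 and 0.608 of those with LPS alone, still several times the untreated level.

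Zc3h12a differed in the other direction. With LPS and Dex it was at 8.26, 8.46 and 8.12 log2 CPM in WT and at 8.26, 8.59 and 8.32 in the KO, and within a mouse it was higher than with LPS alone by 0.27 to 0.52 in all 6. The treated groups did not overlap in either genotype. In limma the difference was 0.37 ± 0.12 in WT (adjusted p = 0.515) and 0.40 ± 0.12 in KO (adjusted p = 0.312). With the mouse as a block both passed the FDR (adjusted p = 0.0297 and 0.0176), but only the KO difference, a ratio of 1.32, exceeded the 1.3-fold limit, the WT ratio being 1.29.

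Zfp36l1 was higher with Dex by 0.19, 0.73 and 0.30 in the WT mice, in the order A, B and C, and by 0.60, 0.76 and 0.62 in the KO. WT mouse B, which had the high LPS value, also had the largest of the 3 WT differences. The limma differences were 0.41 ± 0.33 and 0.66 ± 0.33 and neither was called (adjusted p = 1.0 in both, and 0.327 in KO with the mouse as a block). With the block and without untreated WT mouse A, a combination chosen after seeing the data, both were called (adjusted p = 0.00374 in WT and 6.95e-05 in KO).

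Zfp36l2 and Zc3h12c were also higher with Dex in all 6 mice, Zfp36l2 by 0.22 to 0.35 and Zc3h12c by 0.08 to 0.34, without passing the threshold in either fit. Elavl1 was lower in all 6, by 0.10 or less, but in KO mouse C the difference of −0.001 was close to none. Counting direction alone, 4 of the 9 genes were higher in all 6 mice and 2 were lower, where 9.16% and 10.4% of all genes were. Khsrp, Hnrnpd and Cnot1 differed in sign between mice and their Dex differences within a mouse ran from −0.15 to 0.154.

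**Figure D3:**
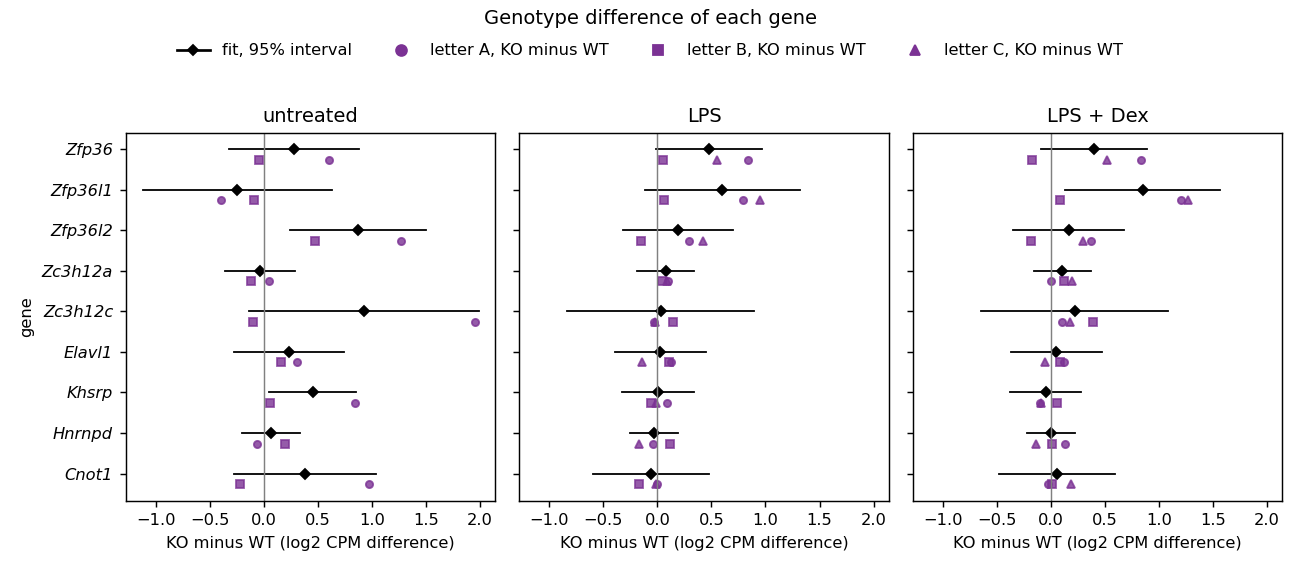
Difference between genotypes (KO minus WT, log2 CPM, horizontal axis) of each gene untreated, with LPS and with LPS and Dex. Diamonds with bars are the limma estimate and its 95% interval, and purple symbols are the differences between mice of the same letter. The differences of Zfp36 and Zfp36l1 with LPS are near 0 for mice B and positive for mice A and C.

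Loss of NELF-B was not accompanied by a called difference in any of the 9 genes. The rule was an FDR under 0.1 and over 1.5-fold, which 0.0104% of all genes passed untreated, 0.385% with LPS and 0.302% with LPS and Dex in limma, so calls were rare over all genes as well. At an unadjusted p under 0.05 there were 2 members untreated (Zfp36l2 and Khsrp), 0 with LPS and 1 with LPS and Dex (Zfp36l1), and voom on the recovered reads called 0 in each. In untreated cells, with 2 libraries per genotype, 4 of the 9 genes had groups that did not overlap, Zfp36l2, Elavl1 and Khsrp higher in KO and Zfp36l1 lower, where 29.4% of all genes had. With LPS, 1 of the 9 genes, Zfp36, had all KO libraries above all WT libraries, though the highest WT and the lowest KO library both round to 11.30 log2 CPM, where 13.7% of all genes had groups that did not overlap, and with LPS and Dex there was none, where 17.8% had.

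Zfp36 was 0.48 ± 0.23 higher in KO with LPS (95% interval −0.01 to 0.97, adjusted p = 0.744, limma) and 0.40 ± 0.23 higher with LPS and Dex (adjusted p = 0.83). The labels do not pair WT with KO mice. The letters are names given here. The letter was tried as a batch because the untreated WT library and the KO libraries of letter B carry the same printed code. The WT libraries of letter B with LPS and with LPS and Dex carry none. The labels thus do not tell whether the untreated and treated libraries of that mouse were handled together. Nothing in the labels ties the WT to the KO mouse of letter A. By letter the LPS difference was 0.84 for A, 0.05 for B and 0.55 for C, and with Dex it was 0.84, −0.17 and 0.52. The mice of letter B thus showed little difference in this gene. With the letter as a batch the LPS difference was the same by construction and was not called (adjusted p = 0.196).

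Zfp36l1 differed by more. It was 0.85 ± 0.33 higher in KO with LPS and Dex (95% interval 0.14 to 1.57, adjusted p = 0.441, limma) and 0.60 ± 0.33 higher with LPS (adjusted p = 0.941), while untreated it was −0.24 ± 0.41, or −0.15 without untreated WT mouse A. By letter the difference with LPS and Dex was 1.20 for A, 0.09 for B and 1.27 for C, and the call was reached only when WT mouse B with LPS and Dex was left out (1.32, adjusted p = 0.0355). With the letter as a batch the adjusted p was 0.121.

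Zfp36l2 was 0.87 ± 0.29 higher in untreated KO (95% interval 0.24 to 1.498, adjusted p = 0.324, limma), by 1.27 for letter A and 0.47 for letter B, and it was called only without untreated WT mouse B (1.26, adjusted p = 0.00479). Without untreated WT mouse A the difference was 0.48 (adjusted p = 0.98), and no member reached an unadjusted p under 0.05 in untreated cells. The other 6 genes differed by −0.03 to 0.93 untreated, the highest being Zc3h12c, which was at −0.18 without untreated WT mouse A, and they differed by −0.06 to 0.08 with LPS and by −0.05 to 0.22 with LPS and Dex, with adjusted p of 0.324 or more. With LPS the 95% interval was widest for Zc3h12c, from −0.84 to 0.90, and narrowest for Hnrnpd, from −0.25 to 0.19.

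The responses themselves were compared between genotypes by an interaction term. For LPS it was 0.84 ± 0.52 for Zfp36l1, −0.90 ± 0.63 for Zc3h12c and 0.20 ± 0.36 for Zfp36. These were 0.75, 0.21 and 0.50 without untreated WT mouse A, so that the sign for Zc3h12c turned. For Dex it was −0.09 ± 0.32 for Zfp36 and 0.25 ± 0.47 for Zfp36l1. None of the 9 genes and none of the 9614 passed an FDR of 0.1 in limma for either interaction (0.0% and 0.0% of all genes), and no member had an unadjusted p under 0.05. Without untreated WT mouse B, Cnot1, Khsrp, Zc3h12c and Zfp36l2 passed for LPS. Mouse A was then the only untreated WT library, and the share of all genes passing was not counted, so this is no result about these genes. The 95% interval of the Dex interaction for Zfp36 ran from −0.78 to 0.61, and with the mouse as a block, which compares the Dex changes within mice, from −0.33 to 0.15.

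Other parts of the decay machinery were examined through lists of genes. Of 26 other AU-rich element or stem-loop binding proteins in the table, 1 was called higher with LPS in WT (Celf1, by 0.67, adjusted p = 0.0441, limma) and 0 in KO. Of 17 deadenylation genes 2 were called higher in WT, Ccrn4l (nocturnin) by 2.45 and the CCR4-NOT nuclease Cnot7 by 0.90, and only Ccrn4l in KO, by 2.30. Of 18 decapping and 5′ decay genes 1 was higher in WT, Patl1 by 0.89, and of 17 exosome genes Ttc37 was higher by 0.75 while the core subunits Exosc4 and Exosc5 were lower by 0.82 and 0.76, with 0 calls in KO for either list. All of these WT calls except Ccrn4l (2.50) were absent without untreated WT mouse A, where the differences were 0.23 for Celf1, 0.12 for Cnot7, 0.24 for Patl1, 0.17 for Ttc37, −0.28 for Exosc4 and −0.16 for Exosc5. The list medians lay between −0.18 and 0.28 in WT and between −0.05 and 0.03 in KO, beside 0.016 and −0.005 over all genes. At an unadjusted p under 0.05 there were 3 binding proteins, 1 deadenylation gene and 0 genes of the other 2 lists in KO. With the mouse as a block 5 binding proteins, 2 deadenylation genes, 4 decapping genes and 1 exosome gene were called higher with LPS in WT and 1 decapping and 2 exosome genes lower, beside the 11.8% and 9.11% of all genes given above. With Dex none of these 4 lists had a call in limma, with at most 1 gene of a list at an unadjusted p under 0.05, and with the block 1 was called, Zc3h12d in KO (−0.54, adjusted p = 0.00424).

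A list of kinases and phosphatases that act on ZFP36 proteins or upstream of them, which also named Ywhab, Ywhaz and Ywhag, held some larger changes. MAPKAPK2 (MK2) phosphorylates ZFP36 and holds it inactive, and the phosphatase DUSP1 switches off the upstream p38 kinase. Mapkapk2 rose from 8.34 ± 0.05 (SD, n = 2) to 9.26 ± 0.01 log2 CPM (SD, n = 3) with LPS in WT and from 8.37 ± 0.10 to 9.50 ± 0.04 in KO, and fell with Dex to 8.88 ± 0.01 and 9.06 ± 0.03. It was called in all 4 comparisons in limma, with Dex by −0.39 (adjusted p = 0.0442) and −0.44 (adjusted p = 0.0179). Dusp1 rose by 4.95 and 5.36 with LPS and Dusp2 by 3.98 and 4.74, all called. Without untreated WT mouse A the WT differences were 0.96 for Mapkapk2, 4.64 for Dusp1 and 3.63 for Dusp2, all still called. Dusp1 was a further 0.93 and 0.89 higher with Dex (adjusted p = 0.118 and 0.133, and 0.000238 and 0.000301 with the mouse as a block). The other 10 genes of the 13 in the table were not called for LPS, where 6.01% of all genes were called higher in WT and 3.08% in KO. The list median was 0.21 in WT, or 0.08 without untreated WT mouse A, and 0.07 in KO.

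The listed messengers known as targets of ZFP36 or ZC3H12A rose with LPS almost without exception. They are largely cytokine and other inflammatory genes, chosen with earlier results of these data known. Their rise therefore does not describe target mRNAs as a class. Of the 25 measured, 24 were called higher in each genotype in limma, the exception being Hif1a, with medians of 4.01 in WT and 3.92 in KO. Over all genes 6.01% were called higher in WT and 3.08% in KO. In WT 23 were called without untreated WT mouse A, Il10 (2.27, adjusted p = 0.137) being lost, with a median of 3.84. The largest WT increases were those of Cxcl1 (8.04), Il6 (7.93) and Csf3 (7.61), and these were 7.73, 7.78 and 7.06 without that library. In untreated WT the libraries held few reads of Csf3 (−3.767 and −2.659 log2 CPM) and Il6 (−2.255 and −1.966). Cxcl1 was higher there (0.325 and 0.938). The size of the Il6 and Csf3 increases, and so the order of the largest increases, rests on those few reads. With Dex 6 were called lower in each genotype and 0 higher, where 0.322% of all genes were called lower in WT and 0.447% in KO. The medians were −0.54 and −0.62 beside −0.007 and −0.002 over all genes. In WT the called genes were Ptgs2 (−2.0), Il1b (−1.97), Il1a (−1.70), Lif (−1.68), Ier3 (−1.35) and Vegfa (−0.81), and in KO Il1b (−1.68), Ptgs2 (−1.66), Lif (−1.42), Ier3 (−1.32), Tnf (−1.18) and Il1rn (−1.02). With the mouse as a block 10 were lower and 1, Fos, was higher in WT, and 11 were lower in KO. Between genotypes Vegfa was called higher in KO with LPS (0.92, adjusted p = 0.0963) and with LPS and Dex (1.04, adjusted p = 0.0523), and no other gene of the list was. The list medians of KO minus WT were 0.30 with LPS and 0.35 with LPS and Dex, beside 0.001 and 0.011 over all genes, and 6 and 11 of the 25 had an unadjusted p under 0.05. Without the share of all genes at that threshold, these counts cannot be read as a result about the list.

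**Figure D4:**
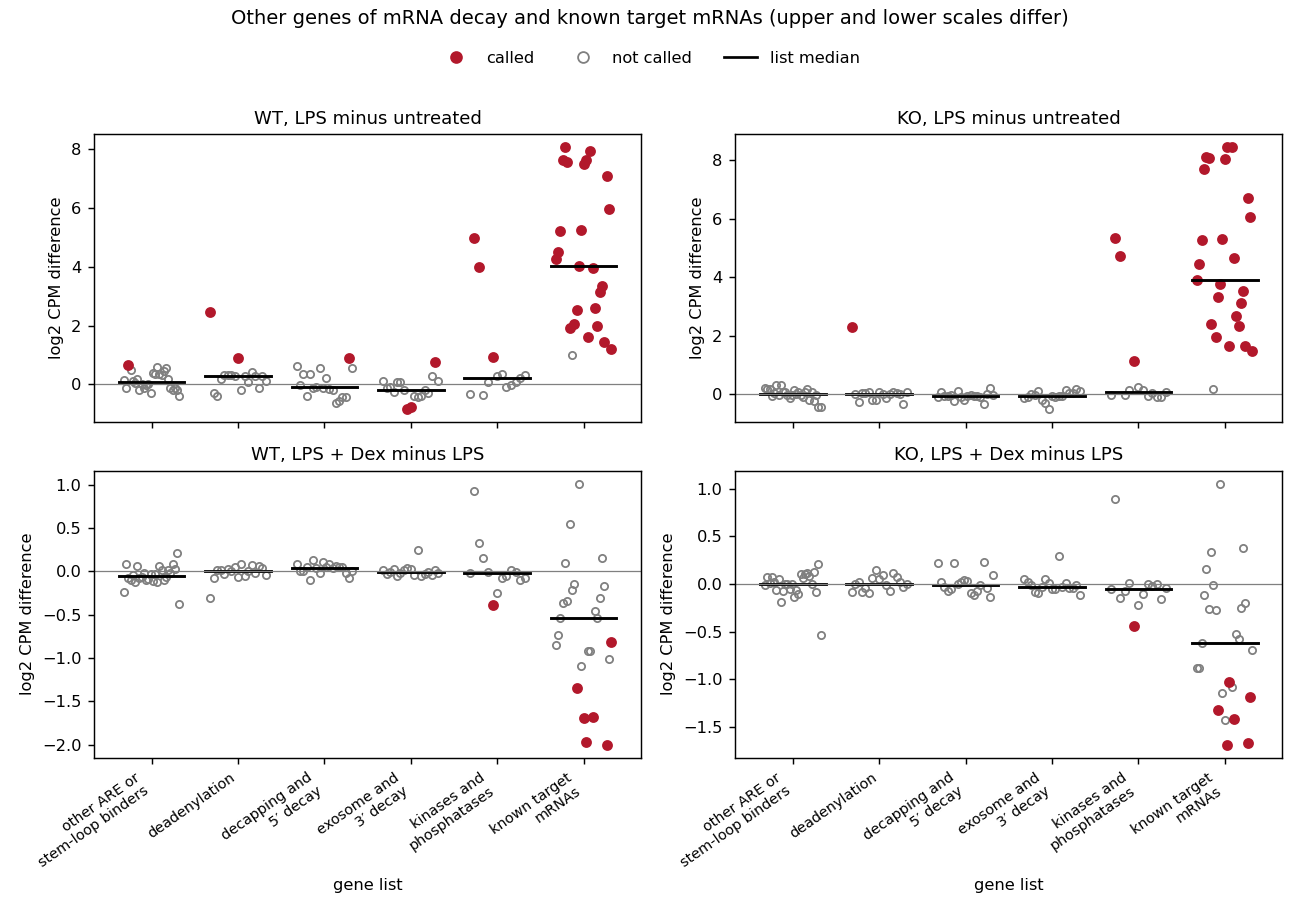
Difference (log2 CPM, vertical axis) of each gene in 6 lists, for LPS (top) and Dex (bottom) in WT (left) and KO (right). Red points were called and grey circles were not, and black lines are list medians. Known target mRNAs lie at medians of 4.01 and 3.92 with LPS and −0.54 and −0.62 with Dex, while the lists of decay enzymes centre near 0.

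The genes whose levels followed a called member most closely over the 16 libraries were found by Pearson r, as a description. The libraries share mice and treatments and are not independent points. For Zfp36 they were Socs3 (0.987), Areg (0.987) and Il1b (0.985), for Zc3h12a Pmaip1 (0.970), Tsc22d1 (0.970) and Cited2 (0.968), and for Zc3h12c Zfp719 (0.994), Gm6377 (0.986) and Gm26809 (0.982). Il1b is among the known target mRNAs and, like Zfp36, was lower with Dex.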

How the data were processed

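BMDM RNA was polyA-selected, sequenced in pairs and mapped to mm10 by the authors, who counted unique exon reads per gene, scaled them in edgeR and deposited log2 CPM for 9614 genes in 16 libraries. Whether counting used strand, and the filter behind the 9614 genes, are not given in the sources used here. The submitters' processing notes also name CASAVA 1.8 and FastQC. The authors' deposited p-values and FDR columns hold their own comparisons and were not used. No pseudocount or filter was added.

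All 6 groups entered a fit without a block in limma 3.58.1 (R 4.3.3), with the variance trended on the mean and Benjamini-Hochberg adjustment over all genes. Groups and mouse numbers came from the labels. Deviations from the group means correlated between a mouse's libraries (r of 0.185 to 0.939 across genes), so a fit with the mouse as a block was added, and beside it centring, a filter at a mean log2 CPM above 1, log2(CPM + 1), voom on recovered reads, unadjusted p under 0.01 (0.05 for KO and genotype), mice A and B alone, 1 treatment alone, the mouse letter as a batch, and each library left out. Reads were recovered from the steps between low values, and 100.0% of values under 3 CPM came out whole within 0.15 reads. Tested on simulated data for LPS in WT, with 200 of 9614 genes changed 2-fold, the fit recovered 67% without the block and 93.5% with it. For Dex in WT at 1.5-fold the shares were 29% and 84.5%. False calls were 0 and 2 for LPS and 0 and 8 for Dex, without and with it. Between genotypes with LPS, 77.5% of 400 changed genes were recovered without the block, with 44 false calls. The simulation gave the mouse most of the variance, which favours the block. Deviations of untreated and LPS libraries correlated at 0.185 and 0.561 in WT mice A and B, so the LPS shares may not carry over. In KO mice A and B they correlated at 0.738 and 0.822. Deviations of LPS libraries and of LPS and Dex libraries correlated at 0.781 to 0.939 within a mouse. Where labels do not say that replicates came from separate cultures, the mouse is the replicate.

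The 9 genes and the lists were chosen with earlier results of these data known. All 9 are named, with the 3 largest called genes of each list for LPS and Dex in WT, the 3 genes most like each member called in both genotypes, and Nelfb. Fos, Hif1a, Ier3, Il10, Il1rn, Lif, Tnf, Vegfa and Zc3h12d were named after their values were seen. Sequences came from GENCODE vM21 and RefSeq.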

Additional observations from a re-analysis of the deposited data

Results flagged for a closer look

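Zfp36l2 differed in direction between the genotypes after LPS. It was higher with LPS in WT mice A and B, by 0.77 and 0.07 on the log2 scale, and lower in KO mice A and B, by −0.20 and −0.55. The difference between the KO and the WT change was −0.681 ± 0.37 (SE) (adjusted p = 0.69, limma), so it did not pass the FDR. With the mouse as a block it was −0.77 (adjusted p = 0.414). Untreated WT mouse A, which stood apart, gave the larger WT value. Without it the difference was −0.43 with the block and −0.287 in the fit without the block. KO mouse C, which had no untreated library, was at 7.64 log2 CPM with LPS, above untreated KO mice A and B (7.44 and 7.43).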

How the results depend on the processing

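The called LPS differences of Zfp36 and Zc3h12c in KO and of Zc3h12a in KO kept direction and call under every alternative run. In WT Zc3h12a and Zc3h12c were not called with mice A and B alone (0.94 and 3.49, adjusted p = 0.238 and 0.148), which left 1 member called. Calls rest on 2 or 3 mice per group. The replicate block by mouse gave 1 member called for Dex in WT and 2 in KO, and without untreated WT mouse A as well, a setting chosen after seeing the data, it gave 2 and 3; it changed no other call beyond Zfp36l1 in WT. The unadjusted threshold with 1.5-fold gave 1 member for Dex in KO, 1 for genotype untreated and 1 with LPS and Dex.

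With single libraries left out, the members called ranged from 3 to 6 for LPS in WT, from 0 to 4 for genotype untreated, from 0 to 1 for genotype with LPS and Dex and from 0 to 4 for the LPS interaction. The 6 and both 4s arose without untreated WT mouse B, where mouse A alone stood for untreated WT, and added Cnot1, Khsrp and Zfp36l2 for LPS. Uncalled differences near 0 changed sign. For LPS in WT the ranges were −0.10 to 0.70 for Khsrp and −0.26 to 1.05 for Cnot1, and with the block and without untreated WT mouse A they were −0.093 and −0.060. For LPS in KO they were −0.38 to 0.0035 for Zfp36l2, −0.021 to 0.30 for Elavl1, −0.062 to 0.094 for Hnrnpd (−0.041 when centred on the median gene) and −0.10 to 0.0295 for Cnot1 (0.016 with the block, also without untreated WT mouse A, and 0.0295 with mice A and B alone). For Dex in WT they were −0.0635 to 0.72 for Zfp36l1, −0.038 to 0.23 for Zc3h12c, −0.19 to 0.0295 for Elavl1, −0.026 to 0.0398 for Khsrp, −0.14 to 0.012 for Hnrnpd and −0.12 to 0.087 for Cnot1. For Dex in KO they were −0.25 to 0.11 for Elavl1, −0.079 to 0.0085 for Khsrp and −0.078 to 0.014 for Hnrnpd. For KO minus WT they were −0.023 to 0.58 for Zfp36 untreated, and −0.0038 to 0.38 with LPS and −0.0098 to 0.36 with LPS and Dex for Zfp36l2, and −0.18 to 2.03 for Zc3h12c untreated. For the LPS interaction they were −0.098 to 0.50 for Zfp36 and −2.0 to 0.21 for Zc3h12c (0.29 with the block and without untreated WT mouse A), and for the Dex interaction −0.31 to 0.137 for Zfp36 and −0.058 to 0.72 for Zfp36l1. With 1 treated library left out of the fit without the block, a Dex difference compared unlike sets of mice. Within a mouse, Zfp36l1 and Zc3h12c were higher with Dex in all 6 mice and Elavl1 was lower in all 6. The cause of the shifts was not tested. Of the values recomputed, 1117 kept direction and side of the threshold, 18 passed it anew, 7 no longer passed and 38 changed sign.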
